A study of Homo sapiens with 6 samples.

Results

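MX1, MX2, IFI6, IFI27, IFI35, IFI44, RSAD2, XAF1, SAMD9 and SAMD9L are genes of the antiviral response to interferon, and they were chosen by name, as 10 of the 23368 gene symbols in the count tables. Their mRNA was measured by RNA-seq in NB4 cells, an established human acute promyelocytic leukemia (APL) line that carries the PML/RARα fusion. The cells were left not treated (3 libraries) or were exposed to 10 µM maltonis for 24 h (3 libraries). Maltonis is a synthetic small molecule of the hydroxypyrone type. All 6 libraries come from this cell line with its fusion gene, and the labels name no added interferon. The study calls the libraries biological replicates, while the labels only number them, so that the p-values below measure the spread between these libraries.

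Interferons bind receptors whose JAK1 and TYK2 kinases activate transcription factors, among them STAT2, which enters the nucleus with IRF9 and binds a repeated GAAA element in the promoters of interferon target genes. The 10 genes are such targets. Most encode proteins that block a step of viral replication, and SAMD9 and SAMD9L are also known for inherited variants that disturb blood formation.

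After maltonis, 7 of the 10 genes had higher mRNA and 1 had lower mRNA. MX1 and RSAD2 rose 16.5-fold and 14.9-fold in mean level from a very low start, SAMD9L rose 9.88-fold, IFI35 7.67-fold, IFI6 5.10-fold and SAMD9 3.64-fold. XAF1 rose 1.27-fold. MX2, the relative of MX1, went the other way, to 0.869 times its level in not treated cells. IFI27 and IFI44 stayed below 1 CPM (the count scaled for library size and composition) in every library and were not tested. RNA was pooled from many cells, so that a change in the number of expressing cells and a change in RNA per cell cannot be told apart.

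Differences were tested with the quasi-likelihood test of edgeR on all 13209 genes that passed the filter on low counts, and were called at a Benjamini-Hochberg adjusted p (FDR) under 0.01. Of the 10 genes, 8 were tested, 7 of them were higher and 1 was lower. Over all genes tested, 31.9% were higher and 32.1% lower, so that a call alone is common in this comparison. Above 2.5-fold, the fold change used in the study, 6 of the 8 were higher, against 9.95% of all genes tested. Adding the study's requirement of more than 10 RPKM, a level that also takes the length of the transcript into account, in the higher group left 3 genes, IFI6, SAMD9 and SAMD9L, against 1.95% of all genes tested. The libraries of the groups did not overlap for 7 genes that were higher and 1 that was lower, while non-overlap in these directions was seen for 38.8% and 37.8% of all genes tested. The median log2 fold change was 2.62 over the 8 genes and 0.01 over all genes tested. The genes were chosen with earlier results of these data known, so that these counts and medians describe the set and do not test it. MX1 and RSAD2 passed the filter only through the maltonis libraries, since in each case 1 not treated library alone exceeded its 0.337 CPM.

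**Figure D1:**
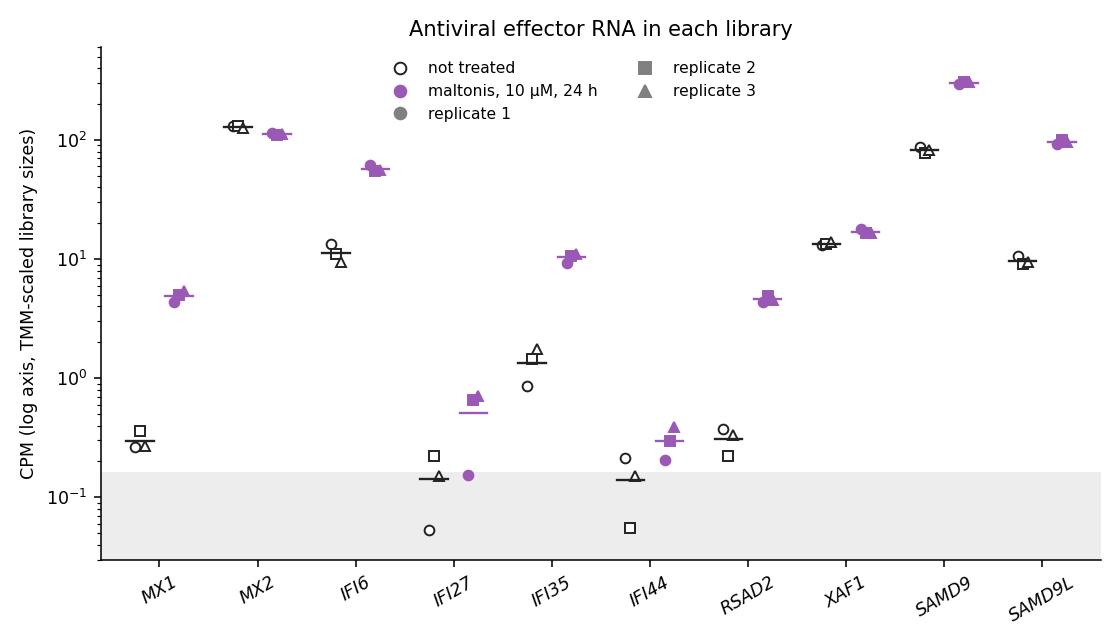
Level of each of the 10 genes in each library, as CPM on a log axis, with open symbols for not treated and filled symbols for maltonis-treated NB4 cells, the symbol shape for the replicate, a bar for the group mean and a grey band up to the highest level of 3 counts among the libraries (0.160 CPM). MX1, IFI6, IFI35, RSAD2, XAF1, SAMD9 and SAMD9L lie higher in all 3 maltonis libraries, MX2 lies lower, and the groups overlap for IFI27 and IFI44.

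Since 7 of the genes moved together, their promoters were read from RefSeq (GRCh38.p14), as windows from 250 bases before to 50 bases after each annotated start. There were 15 windows for 9 of the 10 genes, and none for MX2. The core of the interferon-stimulated response element was searched as GAAANNGAAA on both strands. It was present in 9 of the 15 windows, which belong to 6 genes, and in 3.574% of all 35116 promoter windows of the reference. The windows of IFI27 overlap each other and hold the same matches, as do those of IFI44, so that these elements are counted in more than 1 window. The sequences below are shown for these 6 genes, 5′ to 3′ on the strand of the gene, with the matches in capitals (a match on the other strand reads TTTCNNTTTC). The element lies 11 bases downstream of the first listed start in MX1 (chr21:41420559-41420588, + strand), with another match 196 bases upstream of the third listed start (chr21:41431844-41431873, + strand). It lies 18 bases upstream in IFI44 (chr1:78649761-78649790, + strand), 136 bases upstream in SAMD9 (chr7:93118096-93118125, - strand) and 145 bases upstream of the second listed start in RSAD2 (chr2:6877622-6877651, + strand). IFI27 has 2 matches, at 108 and 95 bases upstream of its first listed start (chr14:94110618-94110660, + strand). IFI6 has 3 matches, at 156, 115 and 93 bases upstream (chr1:27672266-27672358, - strand).
MX1, start 1: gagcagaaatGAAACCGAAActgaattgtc
MX1, start 3: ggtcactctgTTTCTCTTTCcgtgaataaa
IFI6: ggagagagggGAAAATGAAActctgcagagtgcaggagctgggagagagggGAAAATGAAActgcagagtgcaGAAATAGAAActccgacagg
IFI27: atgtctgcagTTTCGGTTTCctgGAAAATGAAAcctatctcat
IFI44: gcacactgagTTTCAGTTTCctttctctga
RSAD2: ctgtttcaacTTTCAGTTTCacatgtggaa
SAMD9: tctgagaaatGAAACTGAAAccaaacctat

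IFI35, XAF1 and SAMD9L had no GAAANNGAAA in their windows. A shorter core, AANNGAAA, which is contained in the longer one, was found in all 15 windows of the 9 genes and in 22.83% of all windows. For these 3 genes the match nearest the start is shown, at 15 bases upstream in IFI35 (chr17:43006758-43006787, + strand), 4 bases upstream of the second listed start in XAF1 (chr17:6756031-6756060, + strand) and 46 bases upstream in SAMD9L (chr7:93148413-93148442, - strand). TTCNNNGAA, the core of the gamma-activated site, was in 4 of the 15 windows, of 3 genes, and in 7.657% of all windows. A match is a description of the letters. The strongly induced SAMD9L and IFI35 lack the long core in these windows, and IFI44, which was not tested, holds it.
IFI35: ggatttcacggAAATGAAAgtggaagcaaa
XAF1: ttgcctgcaagAAACGAAActcaaccgaaa
SAMD9L: ttctaaagcaaAACTGAAActgtctatact

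MX1 and MX2 encode large dynamin-like GTPases. MX1 traps the nucleocapsids of influenza and other viruses in the cytoplasm, and MX2 sits at the nuclear pore and blocks HIV-1 and herpesviruses. MX1 had 5, 13 and 9 counts in the not treated libraries and 85, 167 and 153 after maltonis, or 0.266, 0.359 and 0.271 CPM against 4.39, 4.98 and 5.43 CPM. Every maltonis library was thus far above every not treated one, at a level that stayed low after treatment. The log2 fold change was 4.0 (SE 0.196, n = 3 per group, edgeR adjusted p = 3.73e-07), which ranks 114 among the 13209 genes tested.

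MX2 was abundant before treatment, with 131, 131 and 126 CPM, and was measured at 115, 109.7 and 113 CPM after maltonis. The groups did not overlap, and the distance between them was small. The log2 fold change was -0.20 (SE 0.0534, n = 3 per group, edgeR adjusted p = 0.00769). This call depended on the scaling. With scaling by total counts alone the log2 fold change of MX2 was -0.084 (adjusted p = 0.191), while the median of all genes moved from 0.01 to 0.13, and MX2 lay 0.22 below that median under both scalings (-0.22). The call was also lost without not treated replicate 2 (-0.20, adjusted p = 0.0319), without maltonis replicate 2 (-0.21, adjusted p = 0.0258) or without maltonis replicate 3 (-0.23, adjusted p = 0.0140).

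Within a library the ratio of these GTPases does not depend on scaling. Not treated cells held 491, 365 and 465 MX2 counts per MX1 count, and maltonis-treated cells held 26.2, 22.0 and 20.7. The log2 ratio of MX1 to MX2 rose from -8.68 ± 0.194 to -4.51 ± 0.173 (SD, n = 3), a difference of 4.17 with an exact two-sided permutation p of 0.1, the smallest that 3 against 3 libraries can give (0.15 after adjustment over the 6 pairs compared). Counted from every base, the annotated transcripts of MX1 held 8929 distinct stretches of 50 bases, and 19 of these also occur in MX2. Stretches counted in this way can overlap each other and need not be separate regions. Reads from the shared stretches could not be assigned with certainty between the 27 MX1 and 11387 MX2 counts of not treated cells. An antisense transcript, AP001610.1, overlaps MX1 over 155 bases, and the strand setting of the counting is not given in the sources used here.

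IFI6 and IFI27 encode small hydrophobic membrane proteins of a shared family. IFI6 acts at the endoplasmic reticulum, where it keeps flaviviruses from forming replication sites. It was measured at 13.4, 11.0 and 9.53 CPM in not treated cells and at 62.2, 55.1 and 55.6 CPM after maltonis, with no overlap. IFI6 thus had a log2 fold change of 2.36 (SE 0.121, n = 3 per group, edgeR adjusted p = 4.70e-07).

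IFI27 stayed near the detection limit, with 1, 8 and 5 counts in not treated libraries and 3, 22 and 20 after maltonis, which is 0.0533, 0.221 and 0.151 CPM against 0.155, 0.656 and 0.710 CPM. Maltonis replicate 1 lay below not treated replicate 2, so that the groups overlapped. The ratio of means was 3.58. An exact permutation test on group means of log2 CPM, with a small offset, gave p = 0.2. In an edgeR fit without the filter on low counts, IFI27 had a log2 fold change of 1.75 with an adjusted p of 0.0193. It passed both the filter and the threshold, as a higher gene, when maltonis replicate 1 was left out and in batch B (replicates 2 and 3) alone. On the CPM scale used here, 3 counts correspond to between 0.0828 and 0.160 CPM in the 6 libraries, and maltonis replicate 1 held 3 counts of IFI27. The log2 ratio of IFI6 to IFI27 was 6.26 ± 0.986 before and 7.01 ± 1.22 after maltonis (exact permutation p = 0.5, adjusted 0.5). The difference of 0.75 moved to between 0.044 and 1.31 when a library was left out, so that a difference between the relatives was not resolved.

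The gene that lies beside IFI27 on chromosome 14, IFI27L1, encodes another protein of this family, and it rose from 4.26 ± 0.514 to 11.4 ± 1.51 CPM (log2 fold change 1.41, SE 0.137, edgeR adjusted p = 2.01e-05). IFI27L2, on the other side of IFI27, was at 7.35 ± 0.296 and 6.41 ± 0.363 CPM and did not pass the test (log2 fold change -0.20, edgeR adjusted p = 0.108).

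IFI35 is a leucine zipper protein that binds NMI, another interferon-induced protein. IFI35 counts were 16, 52 and 58 before and 181, 354 and 311 after maltonis, or 0.852, 1.44 and 1.75 CPM against 9.35, 10.6 and 11.0 CPM. The not treated libraries varied among themselves by a factor that was small beside the distance to the treated ones. The log2 fold change was 2.87 (SE 0.191, n = 3 per group, edgeR adjusted p = 1.94e-06). NMI rose less, from 60.9 ± 13.9 to 107 ± 10.8 CPM (log2 fold change 0.81, SE 0.158, edgeR adjusted p = 0.00147). A not treated library held 52.7, 47.4 and 39.9 NMI counts per IFI35 count in turn, and a maltonis library held 10.2, 10.3 and 10.6. The log2 ratio of IFI35 to NMI thus rose by 2.14 (exact permutation p = 0.1, adjusted 0.15).

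IFI44 is a cytoplasmic protein that restrains virus growth, and it lies next to its relative IFI44L. It had 4, 2 and 5 counts in not treated libraries and 4, 10 and 11 after maltonis, or 0.213, 0.0552 and 0.151 CPM against 0.207, 0.298 and 0.390 CPM. The groups overlapped, and the ratio of means was 2.14. The exact permutation test on group means of log2 CPM, with the same offset, gave p = 0.2. Without the filter on low counts the edgeR log2 fold change was 1.24 with an adjusted p of 0.0808. IFI44L was as scarce, with 0, 2 and 1 counts before and 8, 6 and 5 after, so that the log2 ratio of IFI44 to IFI44L had wide errors (1.68 ± 1.59 before, 0.28 ± 1.05 after, exact permutation p = 0.3, adjusted 0.36). The difference in this ratio, -1.40 over all libraries and between -2.24 and -0.66 with a library left out, was -4.09 for replicate 1 and -0.059 for replicates 2 and 3.

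RSAD2, or viperin, is a radical SAM enzyme that turns CTP into a chain terminator of viral RNA synthesis. It had 7, 8 and 11 counts in the not treated libraries and 85, 163 and 128 after maltonis, which is 0.373, 0.221 and 0.332 CPM against 4.39, 4.86 and 4.54 CPM. The groups lay far apart, and all 3 treated libraries were close to each other. RSAD2 had a log2 fold change of 3.94 (SE 0.197, n = 3 per group, edgeR adjusted p = 4.12e-07). CMPK2, a mitochondrial nucleotide kinase encoded next to RSAD2, was more abundant and also rose, from 8.23 ± 0.749 to 34.9 ± 1.48 CPM (log2 fold change 2.09, SE 0.0895, edgeR adjusted p = 1.91e-07). CMPK2 counts per RSAD2 count were 24.1, 34 and 24.6 without treatment and 8.29, 6.88 and 7.68 with maltonis. The log2 ratio of RSAD2 to CMPK2 rose by 1.77 (exact permutation p = 0.1, adjusted 0.15). The exons of this pair overlap on opposite strands by 14 bases.

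XAF1 binds the caspase inhibitor XIAP and counters it. Its level was 13.2, 13.4 and 13.8 CPM before and 17.9, 16.5 and 16.7 CPM after maltonis. All treated libraries were higher, by a small step. The log2 fold change was 0.34 (SE 0.0782, n = 3 per group, edgeR adjusted p = 0.00401). It lost the call without not treated replicate 2 (0.32, adjusted p = 0.0212), maltonis replicate 1 (0.28, adjusted p = 0.0154), maltonis replicate 2 (0.34, adjusted p = 0.0176) or maltonis replicate 3 (0.32, adjusted p = 0.0175). XIAP itself went from 71.8 ± 3.68 to 99.1 ± 4.50 CPM (log2 fold change 0.47, SE 0.0652, edgeR adjusted p = 0.000196). A transcript on the other strand, PRAL, overlaps the exons of XAF1 over 2535 bases, and without the strand setting the part of its reads in the XAF1 counts cannot be told apart.

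SAMD9 and SAMD9L are neighbouring paralogs that restrain translation and poxvirus growth. SAMD9 was already well expressed, at 87.9, 77.7 and 83.1 CPM, and was measured at 293, 306 and 307 CPM after maltonis. SAMD9L went from 10.6, 9.08 and 9.50 CPM to 93.5, 99.3 and 95.5 CPM. In both genes the groups were separated by many times the spread within them. The log2 fold changes were 1.87 for SAMD9 (SE 0.0642, edgeR adjusted p = 7.03e-08) and 3.31 for SAMD9L (SE 0.0799, edgeR adjusted p = 2.05e-08). Not treated libraries held 8.30, 8.55 and 8.75 SAMD9 counts per SAMD9L count, and maltonis libraries held 3.14, 3.09 and 3.21. The log2 ratio of SAMD9 to SAMD9L fell by 1.44 (exact permutation p = 0.1, adjusted 0.15), and the paralogs share no stretch of 50 bases in their annotated transcripts.

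**Figure D2:**
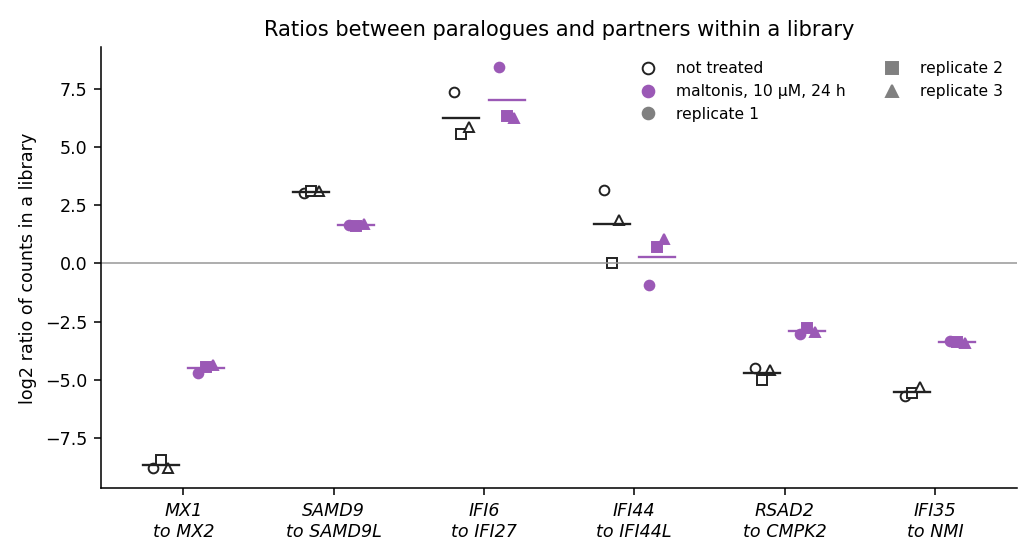
Log2 ratio of the counts of paralogs and partners within each library, with open symbols for not treated and filled symbols for maltonis, the symbol shape for the replicate and a bar for the group mean. The ratio of MX1 to MX2 rises by 4.17 and that of SAMD9 to SAMD9L falls by 1.44 with no overlap, while the ratios of IFI6 to IFI27 and IFI44 to IFI44L overlap between the groups.

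A code in the names of the libraries puts replicate 1 of both groups in a batch A and replicates 2 and 3 in a batch B. Its meaning is not stated. In log2 CPM with a prior count of 2, MX1 differed between the groups by 3.73 in batch A and by 3.78 in batch B. In the same order the differences were 3.33 and 3.80 for RSAD2, 3.13 and 3.38 for SAMD9L, 3.35 and 2.71 for IFI35, 2.21 and 2.43 for IFI6, and 1.74 and 1.93 for SAMD9. The small differences also kept their sign, with 0.44 and 0.29 for XAF1 and -0.19 and -0.21 for MX2. Batch A holds 1 library per group and allows no test on its own.

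**Figure D3:**
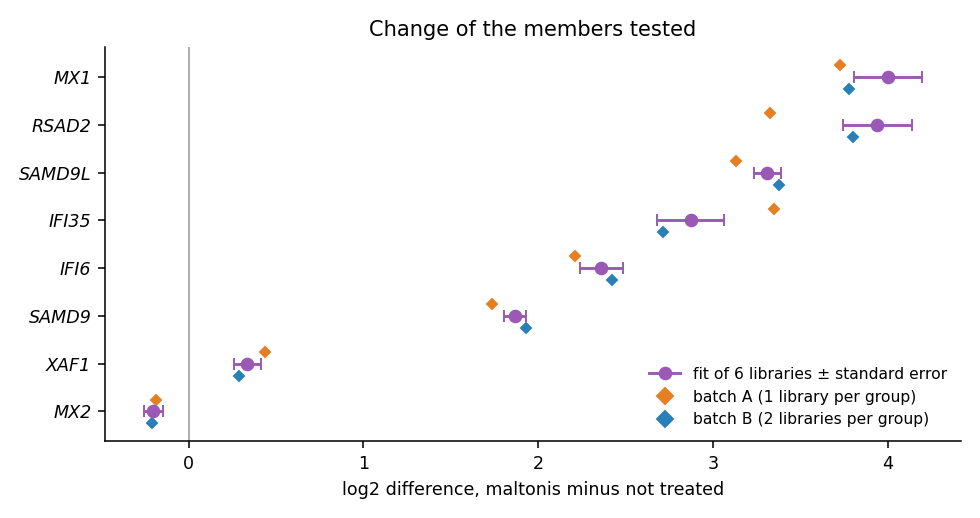
Log2 fold change (maltonis over not treated) of the 8 tested genes from edgeR, with error bars for the SE, beside the difference within batch A and batch B. MX1 and RSAD2 stand near 4, XAF1 at 0.34 and MX2 at -0.20, and both batches give the sign of the whole comparison for all 8.

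Levels of different genes were compared per length, in RPKM. In not treated cells MX2 stood first at 42.5 RPKM, followed by IFI6 (13.1) and SAMD9 (12.1), whose libraries overlapped. XAF1 (3.71) came next, then SAMD9L (1.36) and IFI35 (1.08), which overlapped, and the other 4 genes were between 0.0807 and 0.171 RPKM with overlapping libraries at each step. After maltonis IFI6 was first at 66.6 RPKM, above SAMD9 at 44.1 and MX2 at 36.9, and none of these overlapped. SAMD9L (13.5), IFI35 (8.27) and XAF1 (4.70) followed with no overlap. MX1 (1.33) and RSAD2 (1.31) overlapped each other, as did IFI27 (0.613) and IFI44 (0.177) at the end of the order. This order depended on the length used for each gene. With all annotated exons in place of those linked to RefSeq, MX2 came after IFI6 and SAMD9 in not treated cells, at 9.91 RPKM, and after SAMD9L as well with maltonis, at 8.61 RPKM. With either length MX1 and RSAD2, with the strongest rises, remained among the less abundant of the 10 mRNAs.

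Summed over the 10 genes, the level was 258, 244 and 245 CPM without treatment and 600.2, 608 and 609 CPM with maltonis. The share of MX2 in this sum was 50.8%, 53.6% and 51.6% before and 19.1%, 18.0% and 18.5% after. The share of SAMD9 went from 34.1%, 31.8% and 33.9% to 48.9%, 50.4% and 50.3%. The most abundant transcript of the set therefore differed between the groups, MX2 before and SAMD9 after, on this scale that is not corrected for length.

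The rest of the interferon pathway was described with lists of genes by role. Of 21 interferon genes, IFNB1, the gene of interferon beta, alone was tested, through its maltonis libraries, with 3, 3 and 3 counts before and 19, 17 and 14 after maltonis. Its log2 fold change was 2.56 (SE 0.468, edgeR adjusted p = 0.00102), at 0.111 ± 0.0424 and 0.662 ± 0.277 CPM. Of 9 receptors and kinases, 8 were tested, 4 were higher, 2 were lower and 2 did not pass, beside 31.9% higher and 32.1% lower over all genes tested, with a median log2 fold change of 0.26. With the log2 fold change in parentheses, TYK2 (1.02), IFNAR1 (0.66), IFNGR1 (0.63) and JAK2 (0.34) were higher, and JAK1 (-0.37) and IFNGR2 (-1.08) were lower.

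All 10 transcription factors of the list were tested, 7 were higher, 1 was lower and 2 did not pass, beside the same 31.9% and 32.1% over all genes, with a median log2 fold change of 0.53. IRF9, the DNA-binding partner of STAT2, went from 6.50 ± 0.586 to 48.0 ± 2.13 CPM (log2 fold change 2.90, SE 0.0889, edgeR adjusted p = 4.36e-08). STAT2 rose with a log2 fold change of 1.80 (SE 0.0536, edgeR adjusted p = 3.83e-08). IRF8, a factor of the myeloid lineage, was the gene that was lower (-0.56). Of 6 feedback inhibitors, SOCS1 (3.07) and USP18 (1.51) were higher, PTPN6 (-0.90) was lower and 3 did not pass, with a median of 0.04. Among all genes tested 31.9% were higher and 32.1% lower, so these counts are values of this list only.

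Among 47 other interferon effectors, such as the OAS, IFIT and TRIM genes, 45 were tested, 37 were higher, 28 of them by more than 2.5-fold, and 2 were lower, with a median log2 fold change of 1.71. Of these, 2 genes had no not treated library over the filter and so passed it only through the maltonis libraries. OAS3, a sensor of double-stranded RNA that makes the activator of RNase L, had the largest change (5.34, SE 0.125, edgeR adjusted p = 2.05e-08). IFITM1 (-0.66) and IFITM2 (-1.51), which hinder the entry of viruses into cells, were lower. This list was chosen by hand, and its counts are a description. Of all genes tested, 31.9% were higher, 9.95% were higher by more than 2.5-fold and 32.1% were lower.

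Of 19 relatives and partners of the 10 proteins, 18 were tested, 6 were higher, 6 were lower and 6 did not pass, with a median log2 fold change of -0.09. These shares are near those over all genes tested (31.9% higher and 32.1% lower), and the genes below are values of this list only. CMPK2 (2.09) rose most. The dynamins that resemble MX proteins went both ways, with DNM3 higher (1.66) and DNM1 (-1.51) and DNM1L (-0.92) lower, while DNM2 (0.0078, edgeR adjusted p = 0.906) and OPA1 (0.034, edgeR adjusted p = 0.641) did not pass. RANBP2 (-0.45), a nuclear pore protein, and TNPO1 (-0.98), a nuclear import receptor, were lower. FAM96A (-1.72), a protein of cytosolic iron-sulfur cluster assembly, was lower too.

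**Figure D4:**
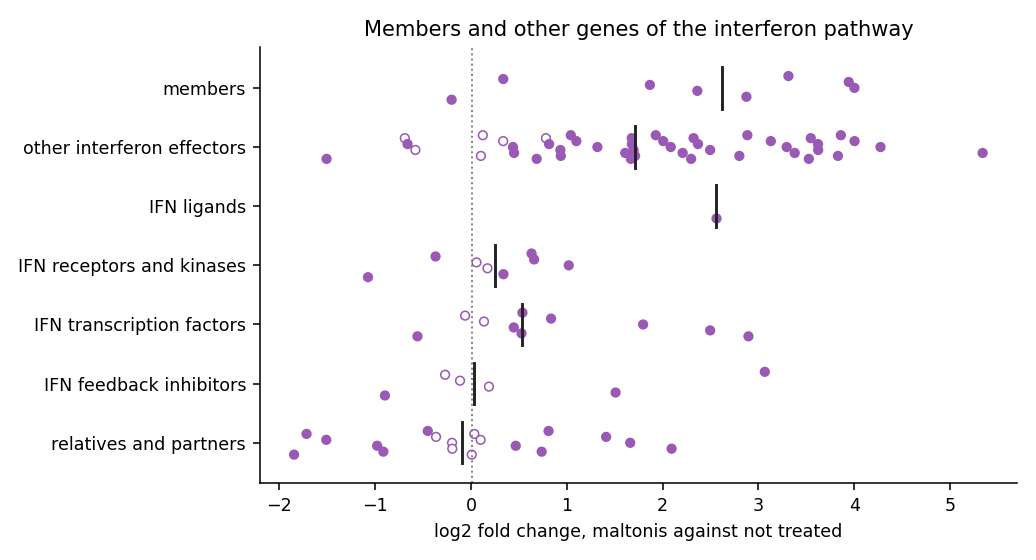
Log2 fold change (maltonis over not treated, edgeR) of each tested gene of the lists by role, filled where the adjusted p was under 0.01, with a line at the median of each list, a dotted line at the median of all genes tested and the 8 genes of the set as members. The 8 tested genes of the set have a median of 2.62, the other effectors 1.71, the transcription factors 0.53 and the receptors and kinases 0.26.

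The neighbours of the 10 genes on their chromosomes were taken from the RefSeq gene order, as the 2 nearest tested genes on each side. No limit was set on distance, and the gap ran from 0 kb (CMPK2 at RSAD2) to 5414 kb (PRKACB at IFI44). Of 32 neighbours outside the set, 11 were higher, 7 were lower and 14 did not pass the test, with a median log2 fold change of 0.17. Next to the MX genes on chromosome 21, PRDM15 was at 22.9 ± 0.819 and 23.7 ± 0.924 CPM and did not pass (log2 fold change 0.05, edgeR adjusted p = 0.571), and C2CD2 was lower (-2.18). PRDM15 lies 339 kb from MX1, and C2CD2 lies 426 kb from it. SAMD9 and SAMD9L on chromosome 7 lie between CDK6, which was lower (-1.11), and CCDC132, which was lower as well (-0.69). CDK6 lies 263 kb from SAMD9, and CCDC132 lies 84.0 kb from SAMD9L. At RSAD2 on chromosome 2, CMPK2 (2.09) and ID2 (2.55) were higher and RNF144A (-1.14) was lower. RNF144A lies 19.2 kb from RSAD2, while ID2 lies 1784 kb from it. At IFI6 on chromosome 1, FGR (0.77), FAM76A (0.60) and STX12 (0.66) were higher. Around XAF1 on chromosome 17, MED31 was lower (-0.93) and the other 3 did not pass. Over all genes tested, 31.9% were higher and 32.1% lower.

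**Figure D5:**
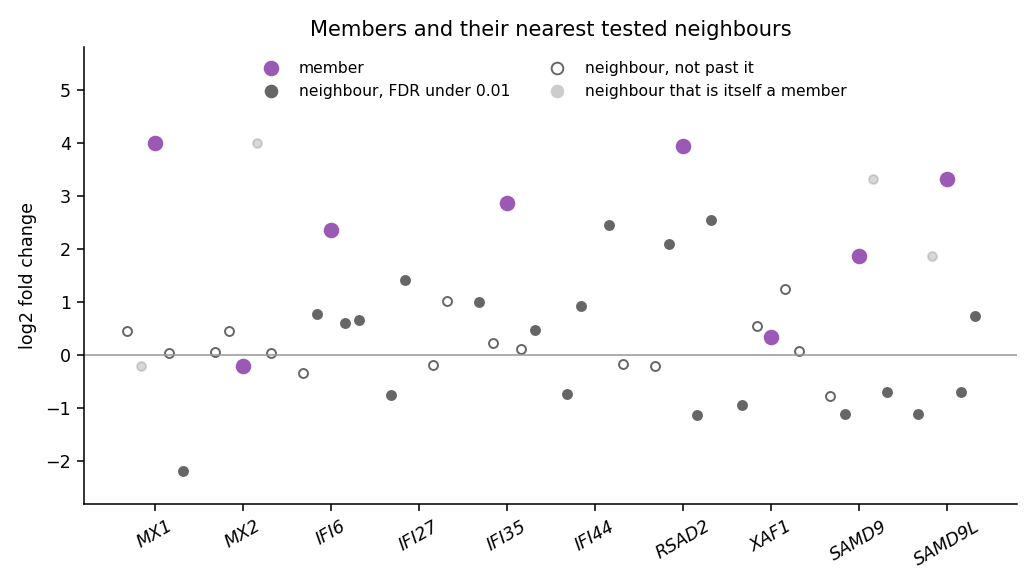
Log2 fold change (maltonis over not treated, edgeR) of each of the genes and of the 2 nearest tested genes on each side, in RefSeq gene order, with large symbols for the gene itself (a member), filled dark symbols for neighbours with an adjusted p under 0.01, open ones for those that did not pass and pale ones for neighbours among the 10 genes. MX1 stands at 4.0 beside MX2 at -0.20, and SAMD9L at 3.31 and SAMD9 at 1.87 lie between CDK6 at -1.11 and CCDC132 at -0.69.

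Profiles over the 6 libraries were compared as Euclidean distances in log2 CPM, each gene relative to its mean in not treated cells, with no test. The gene nearest to MX1 was IFIT3 (distance 0.346), an interferon effector with a log2 fold change of 3.62. The nearest to the other genes were TTC19 for MX2 (0.0414), LOC100129518 for IFI6 (0.104), DNAJC28 for IFI35 (0.278), PURG for RSAD2 (0.337), ASCC2 for XAF1 (0.0549), CCDC15 for SAMD9 (0.0995) and ARHGAP4 for SAMD9L (0.125). None of these 7 is on the lists above. The distance favours genes of like fold change, and the prior count of 2 draws scarce genes together.

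The libraries held 18492154 to 38205483 counts, and the 10 genes took 0.0232% to 0.0249% of the counts in not treated and 0.0629% to 0.0633% in maltonis libraries. Of 8 promyelocytic markers all were tested, and their summed level was 14202 to 16626 CPM before and 8788 to 9281 CPM after maltonis. Most of this sum was MPO, at 14612 ± 1491 CPM before and 7425 ± 127 CPM after, so that the sum mainly follows this gene. Of the 8 markers 2 were higher (CTSG with a log2 fold change of 2.34 and AZU1 with 0.48), 5 were lower (MPO fell by 0.98) and 1 did not pass. Among all genes tested 31.9% were higher and 32.1% lower. The lists of other cells had no higher sum after maltonis. The sum of 5 lymphoid markers was 45.0 to 48.0 CPM before and 16.1 to 17.0 after, mostly CD3D, with MS4A1 at 0 in all libraries. The 5 erythroid markers summed to at most 0.0533 CPM. The 4 plasmacytoid dendritic markers summed to 3.25 to 5.16 CPM before and 1.24 to 1.76 after, mostly TCF4, with CLEC4C and IL3RA at 0. The 5 epithelial and stromal markers summed to 38.6 to 39.7 CPM before and 29.6 to 31.6 after. Of these, 3 were tested, 1 was higher and 2 were lower. KRT8 was higher (2.62 ± 0.197 to 4.86 ± 0.840 CPM, log2 fold change 0.87, edgeR adjusted p = 0.00110). EPCAM (log2 fold change -0.60, edgeR adjusted p = 0.000862) and KRT18 (-0.44, edgeR adjusted p = 0.000943) were lower. The part of the falls in MPO and other promyelocytic markers in the results above was not tested.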

How the data were processed

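RNA-seq libraries of NB4 cells, 3 not treated and 3 exposed to 10 µM maltonis for 24 h, were made with a stranded total RNA kit. The authors deposited for each library a table of counts, whole numbers of reads per gene symbol without normalization. The submitters' processing notes name TopHat, Bowtie2, HTSeq and hg19, while versions, annotation and the strand setting of the counting are not given in the sources used here. Groups were taken from the labels.

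From these counts, CPM scaled by the trimmed mean of M values (TMM), filterByExpr and the quasi-likelihood test were computed with edgeR 4.0.16 in R 4.3.3, on all 6 libraries without covariates, with Benjamini-Hochberg adjustment over 13209 genes. The SE of a log2 fold change was derived from the test, as its absolute value divided by the square root of the F statistic. RPKM used merged exons of RefSeq-linked GENCODE transcripts. These lengths are of a later build than hg19, and 1697 of 23368 symbols had none. Ratios within a library used a pseudocount of 0.5 and the exact permutation test, and 50-base stretches were compared by exact match. For IFI27 and IFI44 the permutation test compared group means of log2 CPM with a small offset. Tables were made with Python 3.11.15 (pandas 2.3.3, numpy 2.4.6, scipy 1.17.1) and figures with matplotlib 3.10.9. The tests were checked on simulated data.

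Replicate libraries differed by more than sampling noise (chi-square per degree of freedom 4.16 to 33.1), and each was counted once. At 18492154 to 38205483 counts per library, 3 counts are 0.0828 to 0.160 CPM on the TMM scale, which covers counting error only.

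The genes and lists were chosen with earlier results of these data known. Besides the 10 genes, their pairs and 10 genes fixed by name, the text names the extremes of each list, list members called when 5 or fewer were called in a direction, the nearest gene by profile and neighbours. Some genes that this rule names are not reported here. Beyond this rule, DNM3, DNM1, DNM1L, DNM2, OPA1, KRT8, EPCAM, KRT18, TCF4, RANBP2, TNPO1, FAM96A, AZU1 and the marker genes at 0 were named after their values were seen. Alternatives covered scaling, filters, DESeq2 1.42.0, the edgeR likelihood ratio test, a replicate block, the batch code, leaving out each library, the pseudocount and the gene length. Batch B alone, the order of levels with all exons and the unfiltered values of IFI27 and IFI44 were chosen after seeing the data.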

Additional observations from a re-analysis of the deposited data

How the results depend on the processing

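Of 336 values of 21 results of the fit across all genes, 315 kept their direction and side of the threshold (or stayed within 1.5 times for counts), and none reversed. The exact tests of ratios cannot pass a threshold of 0.05 and are left out of this count. The count of the 10 genes that were lower, 1 (MX2), fell to 0 with total counts, upper quartile scaling, the edgeR likelihood ratio test, no filter on low counts or a filter of 10 counts in every library, and ranged from 0 to 1 when each library was left out. At an unadjusted p under 0.05 the count was 0 with total counts and upper quartile scaling and 1 in the other settings, DESeq2 included. The log2 fold change of MX2 was -0.084 (total counts), -0.12 (upper quartile), -0.20 (likelihood ratio test, adjusted p = 0.0145), -0.21 (no filter, adjusted p = 0.0114) and -0.18 (10 counts, adjusted p = 0.0134), and lay between -0.24 and -0.20 with a library left out. XAF1 lay between 0.28 and 0.35 with a library left out. Without the RPKM criterion the genes above 2.5-fold numbered 6 in place of 3, by construction. The log2 ratio of MX1 to MX2 changed by 3.95 with a pseudocount of 2. The filter of 10 counts removed MX1 and RSAD2. The SE was larger with DESeq2 for every tested gene of the set, for MX1 0.338 against 0.196. Over all genes, 4902 were higher and 3652 lower with total counts, against 4213 and 4239 with TMM. The cause of the lost calls was not tested.

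When the replicate number entered the fit as a block, 7 genes were higher, 1 lower and 3 passed the study's criteria, and no call on these 8 genes changed (XAF1 0.33, MX2 -0.20). Over all genes the block gave 4602 higher and 4620 lower. Deviations of same-numbered libraries correlated at 0.301, 0.0852 and 0.161, and not every library correlated best with its own number, so that the pairing was not used. Not treated replicate 1 correlated at -0.173 and -0.216 with maltonis replicates 2 and 3, which the code puts in the other batch. With the batch code as a covariate, 7 genes were higher and 1 lower, while over all 13209 genes tested 4731 were higher and 4743 lower. In that edgeR fit XAF1 was at 0.33 (adjusted p = 0.00184) and MX2 at -0.20 (adjusted p = 0.00222). Low counts limit IFI27, IFI44, IFI44L and the not treated level of MX1 and RSAD2.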
